A study of Mus musculus with 9 samples.

Results

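A pair of leukaemias of one genotype, each from a different primary mouse, were compared: cells of leukaemia B (LeuB) against cells of leukaemia A (LeuA), with 3 arrays each, 6 of the 9 arrays of the study. Differences were taken for all 21872 genes that the array names. The gene lists, and the rule for naming genes, were chosen with earlier results of these data known. The LeuB cells were sorted from C57BL/6 recipients 1 month after they received spleen cells of one moribund Tet2-/-:AE mouse. The LeuA cells came from recipients of spleen cells of a second moribund Tet2-/-:AE mouse, at the same time after transplantation. The WT cells were sorted from C57BL/6 recipients of WT bone marrow. Both leukaemias therefore carried the loss of Tet2 and the AE fusion of AML1 (Runx1) with ETO (Runx1t1), and only the primary mouse differed by title and source name. The labels conflict on this point, since the field on transplanted cells gives LeuA for the LeuB arrays too. Titles and source names were followed here. Each leukaemia is 1 primary mouse, so replicates measure the spread among recipients of that mouse's cells, and a difference between LeuB and LeuA cannot be told apart from a difference between any 2 such mice. All cells were gated as Lin-cKit+Sca1-CD16/32+CD150- granulocyte-monocyte progenitors (GMPs) of bone marrow, and RNA was read on one-colour Agilent arrays.

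AML1-ETO is a fusion of a haematopoietic transcription factor with a corepressor, and TET2 oxidises methylated cytosine in DNA, a step towards its removal. Leukaemias that share such founding lesions go on to acquire their own further mutations and their own patterns of DNA methylation and expression. The comparison of LeuB with LeuA asks which genes differ between 2 tumours with the same founding lesions.

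LeuB 1 lay on the slide of all LeuA and WT arrays, whereas LeuB 2 and LeuB 3 lay on a second slide. Each difference was therefore computed from all arrays and again with slide as a term, which amounts to LeuB 1 minus the LeuA mean. The LeuB arrays differed more across slides than within one: the median absolute difference per gene was 0.140 and 0.153 log2 units between LeuB 1 and the other 2 LeuB arrays, against 0.0913 between LeuB 2 and LeuB 3 and 0.0924 to 0.106 among the LeuA arrays. LeuB 3 also stood apart in calprotectin and some other neutrophil genes. S100a9, of calprotectin, was at 7.89, 9.18 and 12.99 in LeuB 1 to 3, against 10.06, 10.16 and 10.48 in LeuA. Ltf was at 6.51, 6.82 and 9.15 in LeuB 1 to 3, against 6.70 to 6.96 in LeuA. Camp was at 7.20, 7.05 and 9.03, against 7.06 to 7.38. Ly6g, at 6.08, 6.07 and 6.16 in LeuB 1 to 3, did not share this. Levels are log2 intensities between about 5.66 and 18.24. Detection calls were not used here, so a level near 6 lies at the bottom of the scale and a fold against it may understate the difference.

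The gate was shared, but the defining transcripts of GMPs were low in both leukaemias. The mean of 8 GMP markers was 8.76 to 9.18 in LeuB arrays, 8.98 to 9.02 in LeuA arrays and 14.1 to 14.3 in WT arrays. Mpo, the myeloperoxidase of granules, was at 6.46, 7.70 and 8.56 in LeuB, against 7.74, 8.09 and 7.87 in LeuA and 18.24, the top of the scale, in every WT array. GMP is therefore used below as the name of the gate. The gate's receptor gene Kit was at 12.48, 12.26 and 12.40 in LeuB and 12.32, 12.46 and 12.51 in LeuA, a difference of -0.05 (95% interval -0.26 to 0.16), and with slide as a term it was 0.05.

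At a Benjamini-Hochberg adjusted p under 0.05 in limma, 2683 genes (12.3% of 21872) differed, 1511 (6.91%) higher and 1172 (5.36%) lower in LeuB. With slide as a term as well, 764 (3.49%) were called in both fits, 400 (1.83%) higher and 364 (1.66%) lower. All 2683 kept their sign with slide as a term, and for 2677 of them LeuB 1 alone lay beyond all LeuA arrays on the called side. LeuB 1 is part of the LeuB mean that made each call, so neither count checks the slide independently. The median absolute difference of the called genes was 0.48 log2 units, and 377 genes (1.72%) differed at least 2-fold, 207 higher and 170 lower. Of these 377, 291 were called in both fits, as were all 27 genes that differed at least 8-fold (13 higher, 14 lower). The LeuB and LeuA arrays did not overlap for 6602 genes (30.2%). The count of calls depended on single arrays: it was 1380 without LeuB 2, 1503 without LeuB 3, 1674 without LeuA 3 and 1727 without LeuA 2, and 5498 without LeuB 1, when group and slide coincide.

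**Figure D1:**
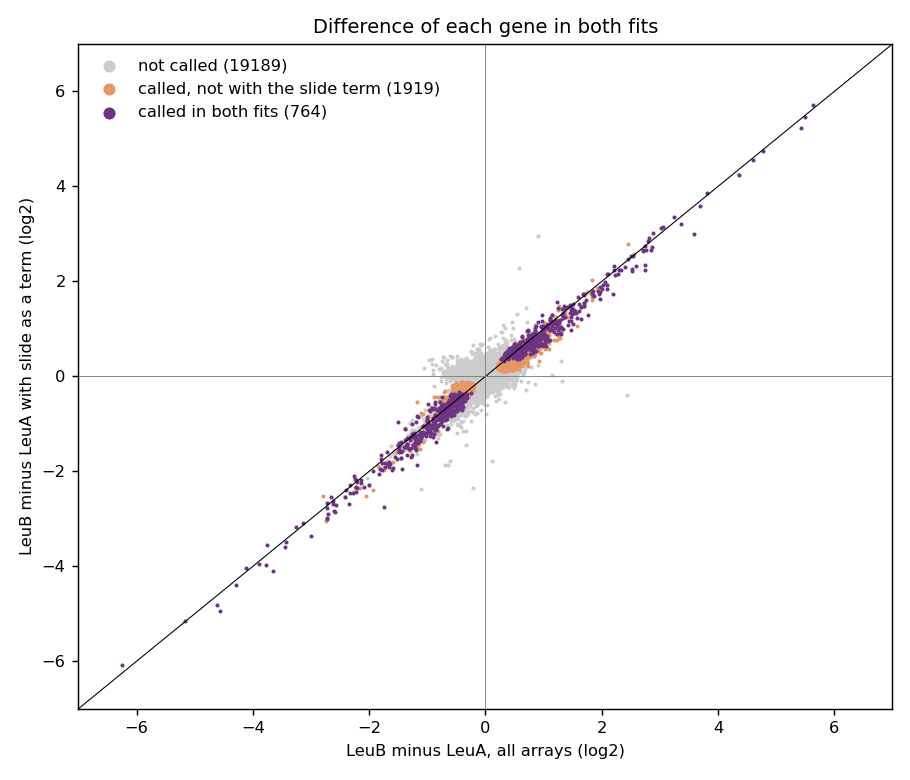
Difference between LeuB and LeuA for each of 21872 genes, in log2 units, from all arrays (x axis) and with slide as a term (y axis), where each point is a gene and the line marks equal values. The 764 genes called in both fits lie along the line out to the largest differences, and the 1919 genes called only without the slide term have a median absolute difference of 0.42, with 86 of them at least 2-fold apart.

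The largest rises in LeuB were in genes that were at the bottom of the scale in LeuA. Ldhc, the lactate dehydrogenase subunit of the male germ line, was at 12.22, 12.25 and 11.98 in LeuB, against 6.51, 6.42 and 6.60 in LeuA and 6.84, 6.99 and 6.86 in WT. It was 49.9-fold higher in LeuB than in LeuA (log2 difference 5.64, SE 0.09, adjusted p = 2.14e-09; 5.71 with slide as a term). Amph, which encodes amphiphysin, a protein that bends membranes in endocytosis, was at 11.75, 11.80 and 11.81 in LeuB, against 6.27, 6.25 and 6.34 in LeuA. It was 45.2-fold higher, and the WT arrays at 6.16 to 6.25 resembled LeuA. Neither gene overlapped between the leukaemias in any array, as the choice of genes required, and both stood high in LeuB alone.

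The enzyme's other subunit gene moved the opposite way. Ldhb, the heart-type subunit of lactate dehydrogenase, was at 6.60, 6.22 and 6.75 in LeuB, against 10.92, 10.01 and 10.98 in LeuA and 12.26 to 12.48 in WT. It was 17.3-fold lower in LeuB (log2 difference -4.12, SE 0.24, adjusted p = 1.44e-05), and -4.04 with slide as a term. Ldha, the muscle-type subunit, was at 17.21, 17.20 and 17.21 in LeuB and at 17.22, 16.98 and 17.30 in LeuA, a difference of 0.04 that was not called. Ldhc and Ldhb thus differed in opposite directions without overlap of arrays, while the LeuB values of Ldha lay within the range of LeuA.

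Members of the X-linked lymphocyte-regulated (Xlr) family, neighbouring X-chromosomal genes, were high in LeuB and at the bottom of the scale in LeuA. Xlr3b was at 11.44, 11.74 and 11.72 in LeuB, against 6.27, 6.13 and 6.22 in LeuA and 9.91, 10.17 and 9.80 in WT. Xlr4b was at 10.96, 10.97 and 11.07 in LeuB, against 6.36, 6.44 and 6.39 in LeuA and 9.82, 9.91 and 9.98 in WT. The folds were 43.0 and 24.3, with log2 differences of 5.43 (SE 0.11, adjusted p = 1.63e-08) and 4.60 (SE 0.07, adjusted p = 1.29e-09). In both genes the WT arrays stood nearer LeuB than LeuA. Xlr4a, from a list of germline genes often silenced by methylation, followed at 9.13, 9.02 and 9.21 in LeuB and 6.58, 6.48 and 6.70 in LeuA (difference 2.53). Xlr4d-ps was 2.74 higher as well, whereas Xlr3a gave 0.73, a call that was lost with slide as a term and without any array but LeuA 2 or LeuB 1. Of the Xlr5 genes, Xlr5a, Xlr5b and Xlr5c gave -0.28, 0.09 and -0.03 and were not called. The germline list as a whole did not share the rise. Of its 25 measured members only Xlr4a and Xlr3a (8%) were called higher, 1 of them in both fits, and none lower. Over all genes 6.91% were higher and 5.36% lower, and the list median was 0.0003.

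Windows of 120 bases upstream of the starts of Xlr3b and Xlr4b are shown because the 2 genes moved together, with CpG, the dinucleotide that is methylated in DNA, in capitals. They are from RefSeq on GRCm38.p6, at chrX:73192059-73192178 and chrX:73214213-73214332, both on the plus strand, and hold 3 and 5 CpG.
Xlr3b: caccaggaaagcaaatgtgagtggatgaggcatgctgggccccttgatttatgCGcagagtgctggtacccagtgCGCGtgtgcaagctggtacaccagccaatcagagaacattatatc
Xlr4b: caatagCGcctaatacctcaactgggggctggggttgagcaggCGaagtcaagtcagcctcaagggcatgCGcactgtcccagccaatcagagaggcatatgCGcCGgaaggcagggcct
Over 250 upstream bases the Xlr4b and Xlr4a sequences were 93.0% identical in a global alignment. Whether the Xlr4a and Xlr4b probes read each other's transcripts was not tested, and methylation was not measured.

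Further rises joined genes of varied function. Abca3, a phospholipid transporter, was at 12.43, 12.58 and 12.61 in LeuB, against 7.21, 8.63 and 8.69 in LeuA and 11.56 to 11.66 in WT. Tspan32, a tetraspanin of blood cells, was at 14.11, 14.04 and 14.04 in LeuB, against 11.19, 9.37 and 10.19 in LeuA, and its second probe gave a rise of 1.81. In both genes the LeuA arrays were spread widely (SD 0.84 and 0.91) and the LeuB arrays tightly (SD 0.10 and 0.04). Mapt, which encodes the microtubule protein tau, was 8.35-fold higher (11.51, 11.30 and 11.45 in LeuB, against 7.91, 8.66 and 8.50 in LeuA), and its second probe gave a difference of 2.71. Hebp1, a haem-binding protein gene, was 3.59 log2 units higher, and 2.99 with slide as a term. The sialyltransferase gene St3gal2 was 10.3-fold higher and Tmc4, a channel-like membrane protein gene, 9.51-fold higher.

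Skap1, an adaptor of integrin activation in T cells, rested on 1 of 4 probes. The brightest was at 11.07, 11.04 and 11.23 in LeuB, against 6.35, 6.16 and 6.48 in LeuA, 27.5-fold higher (log2 difference 4.78). The other 3 probes gave -0.00, 0.20 and 0.17, none of them called. Which transcripts each probe reads was not examined.

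**Figure D2:**
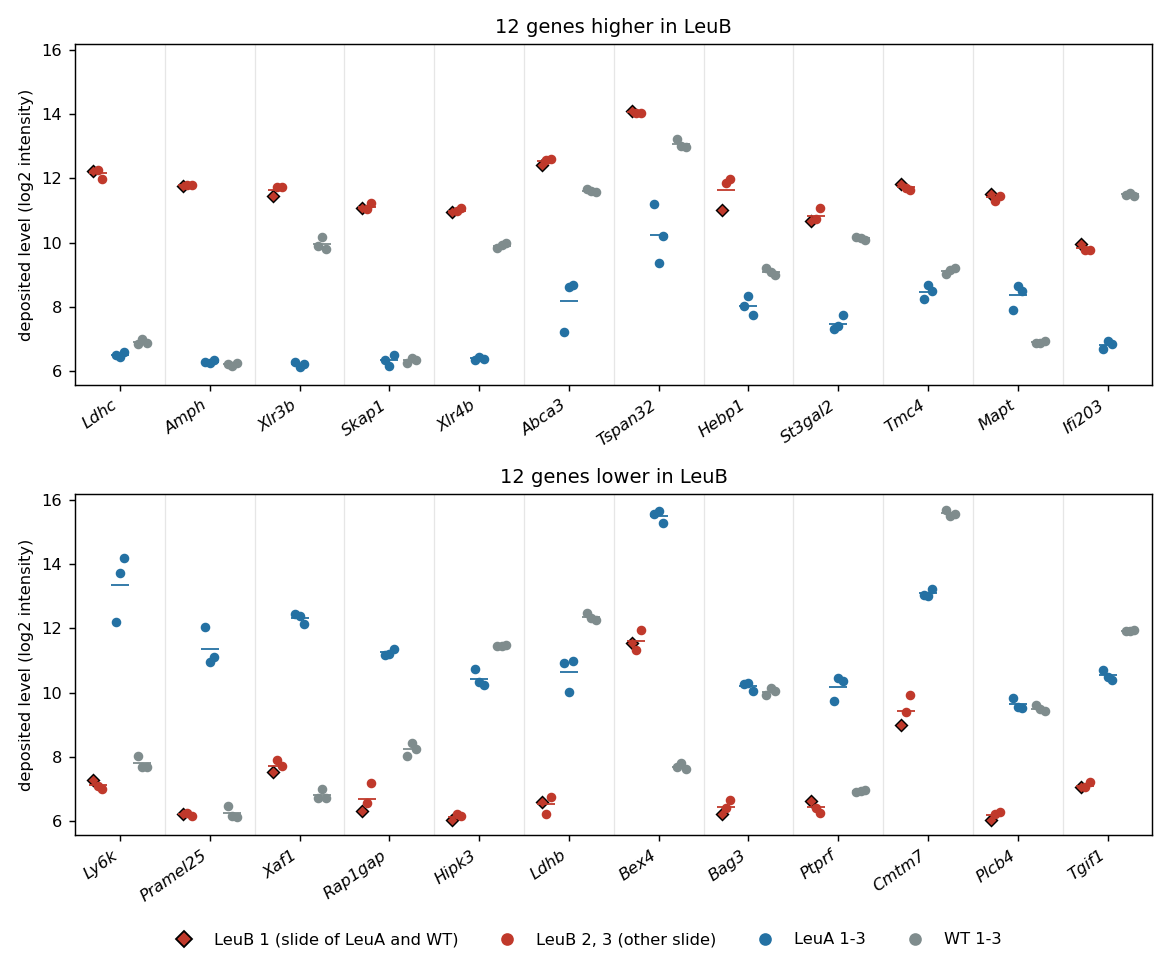
Deposited log2 intensity of the 24 genes with the largest differences, 12 higher (upper panel) and 12 lower (lower panel) in LeuB, for the LeuB, LeuA and WT arrays from left to right within each gene. Points are arrays, short lines are group means, and the diamond is LeuB 1, on the slide of LeuA and WT. The choice of these genes required all LeuB arrays, LeuB 1 among them, to lie on one side of all LeuA arrays.

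The largest falls in LeuB included genes that LeuA alone held at a high level. Ly6k, a lipid-anchored surface protein gene of the Ly6 family, was at 7.29, 7.10 and 6.99 in LeuB, against 12.20, 13.72 and 14.18 in LeuA and 7.67 to 8.03 in WT. It was 75.8-fold lower in LeuB (log2 difference -6.24, SE 0.41, adjusted p = 2.79e-05; -6.08 with slide as a term). Pramel25, of the PRAME-like family, was at 6.22, 6.24 and 6.16 in LeuB, against 12.04, 10.96 and 11.11 in LeuA and 6.13 to 6.48 in WT. Of 29 measured Pramel genes 4 were called lower, 3 of them in both fits, and none higher. Over all genes 5.36% were lower, 1.66% in both fits, and 6.91% were higher. Pramel29 and Pramel51 shared the pattern of Pramel25, with LeuA values of 9.15 to 10.11 and 8.44 to 9.41. In LeuB they lay between 6.24 and 6.44 and between 6.41 and 6.71. In all 3 genes LeuA 1 was the highest array, in one order over the arrays, and whether 1 probe reads several near-identical copies was not tested. Ptprf, a receptor tyrosine phosphatase gene, was 13.4-fold lower, with WT at 6.92 to 6.96.

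Bex4 was high in both leukaemias but unequally. It was at 11.56, 11.34 and 11.97 in LeuB, against 15.57, 15.67 and 15.29 in LeuA and 7.61 to 7.81 in WT, so that LeuB was 14.8-fold lower than LeuA and still above WT. Bex6 was lower in LeuB as well (6.19 to 6.36 in LeuB, 7.26 to 7.29 in LeuA), but unlike Bex4 it lay below WT (10.94 to 11.51) in both leukaemias. Bex2 fell by 0.59 in both fits, whereas Bex1 and Bex3 gave -0.14 and -0.29 and were not called. Rap1gap, which switches off the GTPase Rap1, was 23.8-fold lower in LeuB (6.31, 6.56 and 7.17, against 11.18, 11.22 and 11.36 in LeuA), and its second probe fell by 3.71.

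Other falls were of genes in which LeuB lay below both LeuA and WT. LeuA was itself below WT in Hipk3, Tgif1 and Cmtm7 (LeuA minus WT -1.03, -1.40 and -2.50), but not in Plcb4 (0.13). Hipk3, a nuclear protein kinase gene, was at 6.05, 6.22 and 6.16 in LeuB, against 10.73, 10.35 and 10.23 in LeuA and 11.44 to 11.50 in WT. Tgif1, a homeobox repressor of TGF-beta responses, was at 7.05, 7.06 and 7.22 in LeuB, against 10.72, 10.49 and 10.40 in LeuA and 11.92 to 11.95 in WT. Cmtm7, a MARVEL-domain membrane protein gene, was 12.6-fold lower (9.01, 9.41 and 9.92 in LeuB, 13.05, 13.02 and 13.23 in LeuA, 15.52 to 15.70 in WT). Plcb4, a phospholipase C gene, was 10.9-fold lower by its brightest probe, while its other probes gave -0.84 (adjusted p = 0.0645) and -1.17 (called).

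Bag3, the co-chaperone that couples Hsp70 to autophagy, was at 6.22, 6.40 and 6.67 in LeuB, against 10.26, 10.30 and 10.05 in LeuA and 9.92 to 10.14 in WT. It was 13.7-fold lower (log2 difference -3.78, SE 0.12, adjusted p = 2.88e-07). The chaperone list it belongs to leaned the same way at far smaller sizes. Of 15 measured members 7 (46.7%) fell and none rose, beside 5.36% lower and 6.91% higher of all genes, with a median difference of -0.20 beside -0.01. Called in both fits were Bag3 and Hspa8, the constitutive Hsp70 (13.42, 13.51 and 13.47 in LeuB, 14.06, 14.06 and 14.34 in LeuA). Hspa1a, the inducible Hsp70, fell by 0.96, its LeuA arrays were spread from 7.08 to 8.20, and it was not called with slide as a term or without LeuA 3, LeuB 2 or LeuB 3. The count of falls was 3 without LeuB 2 or LeuB 3 and 4 without any 1 LeuA array, and the median with slide as a term was -0.07.

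Interferon-stimulated genes formed the list with the most members called. Of 29 measured, 13 (44.8%) were lower in LeuB, beside 5.36% of all genes, and 3 (10.3%) were higher, beside 6.91%. The median difference was -0.40, and -0.31 with slide as a term, when 6 were called lower and 1 higher in both fits. Xaf1, a pro-apoptotic interferon target, was at 7.52, 7.91 and 7.71 in LeuB, against 12.46, 12.38 and 12.15 in LeuA and a mean of 6.81 in WT, 24.5-fold lower. Isg15, a ubiquitin-like modifier, was at 13.73, 13.84 and 13.77 in LeuB, against 14.99, 15.24 and 14.97 in LeuA and 10.38 to 10.59 in WT (log2 difference -1.29, SE 0.09, adjusted p = 3.9e-05). Xaf1 in LeuB thus lay within 1 log2 unit of WT on average, whereas Isg15 stayed well above WT in both leukaemias.

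Ifi27l2a fell by 1.15 and Irf7, the master regulator of interferon responses, by 0.99. Irf7 was at 10.93, 10.33 and 10.28 in LeuB, against 11.41, 11.55 and 11.56 in LeuA and 7.37 to 7.49 in WT, so that LeuB 1 lay nearest LeuA, and its difference with slide as a term was -0.57. The antiviral synthetase genes Oas3 and Oas1a fell by 0.52 and by 0.50 and were called in both fits. Oasl2, Rtp4, Rsad2, Bst2, Ifit1, Ddx58 and Mx2 were called only without the slide term, with differences of -0.35 to -0.88. Members that rose were Isg20, an exonuclease gene (0.46, called in both fits), Ifitm3 (0.61) and Gbp2 (0.23). Without LeuB 3 the number lower was 8, over all arrays left out in turn it was 8 to 14, and the number higher was 1 without LeuB 2, LeuB 3, LeuA 3, WT 2 or WT 3 and 2 without any other array.

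Upstream windows of 3 members called lower are shown, with the core of the interferon-stimulated response element in capitals. The letters searched were GAAANNGAAA, on both strands of the 300 bases from 250 before to 50 after each start. The windows, from RefSeq on GRCm38.p6, lie on the minus strand at chr4:156200840-156200931 (Isg15), chr5:120907526-120907580 (Oas1a) and chr5:120777690-120777769 (Oas3).
Isg15: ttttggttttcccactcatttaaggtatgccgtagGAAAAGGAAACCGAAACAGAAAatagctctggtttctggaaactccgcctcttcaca
Oas1a: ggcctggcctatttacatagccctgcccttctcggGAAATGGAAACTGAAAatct
Oas3: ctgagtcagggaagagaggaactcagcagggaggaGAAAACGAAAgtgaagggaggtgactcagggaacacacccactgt
The Isg15 and Oas1a stretches hold overlapping matches. Of 22 list members with a promoter entry 15 (68.2%) held the letters, and of the 10 with an entry among those lower 7 (70.0%) did. Of the 17181 measured genes with an entry 3.96% did. The list was chosen as interferon-stimulated, so its excess over all genes was given by that choice and tells nothing of the falls. Among genes called in both fits and at least 2-fold apart, 10.3% of those higher and 5.5% of those lower held the letters. Xaf1, Irf7 and Oasl2 had no match in this window.

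Of 8 measured genes of the p200 family, which interferon also induces, 6 were higher in LeuB, 4 of them in both fits, and none was lower. Over all genes 6.91% were higher, 1.83% in both fits, and 5.36% were lower. Ifi203 was at 9.95, 9.78 and 9.77 in LeuB, against 6.68, 6.94 and 6.84 in LeuA and 11.46 to 11.56 in WT (8.10-fold higher, adjusted p = 1.24e-07). Its neighbours Mndal and Ifi203-ps rose by 2.20 and 1.49 in both fits. Ifi209 rose by 1.68, at 8.27 to 8.37 in LeuB, 6.61 to 6.64 in LeuA and 10.11 to 10.82 in WT. In these 4 genes LeuB lay between LeuA and WT, and no array of one group overlapped another. Ifi204 (1.02) and Ifi208 (0.30) were called only without the slide term, and Ifi207 (-0.58) and Ifi202b (-0.12) were not called. Copies within the family are similar in sequence, and whether a probe reads more than 1 of them was not tested.

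Oxidative phosphorylation genes, which encode subunits of the mitochondrial respiratory chain and ATP synthase, formed the list with the largest share of falls. Of 24 measured, 13 (54.2%) were lower and none was higher, beside 5.36% and 6.91% of all genes, and 22 had a negative difference. Sizes were small: the median was -0.26, or -0.24 with slide as a term. The ATP synthase subunit gene Atp5b was at 16.29, 16.25 and 16.34 in LeuB, against 16.62, 16.68 and 16.86 in LeuA and 16.41 to 16.52 in WT. The complex III gene Cyc1 was at 13.66, 13.55 and 13.63 in LeuB, against 13.90, 14.06 and 14.24 in LeuA, and was not called without LeuB 2 (adjusted p = 0.0528). Relative to the LeuA mean, the list median was -0.24, -0.27 and -0.27 in the LeuB arrays and between -0.10 and 0.06 in the LeuA arrays, and the WT arrays lay at 0.02 to 0.10. LeuB 1 thus shared the shift, yet none of the 13 was called in both fits. The number lower was 5 without LeuB 2, LeuA 2 or LeuA 3 and 7 without LeuB 3 or WT 3. Cytosolic ribosomal protein genes, with 1 of 23 lower, had a median of -0.04.

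**Figure D3:**
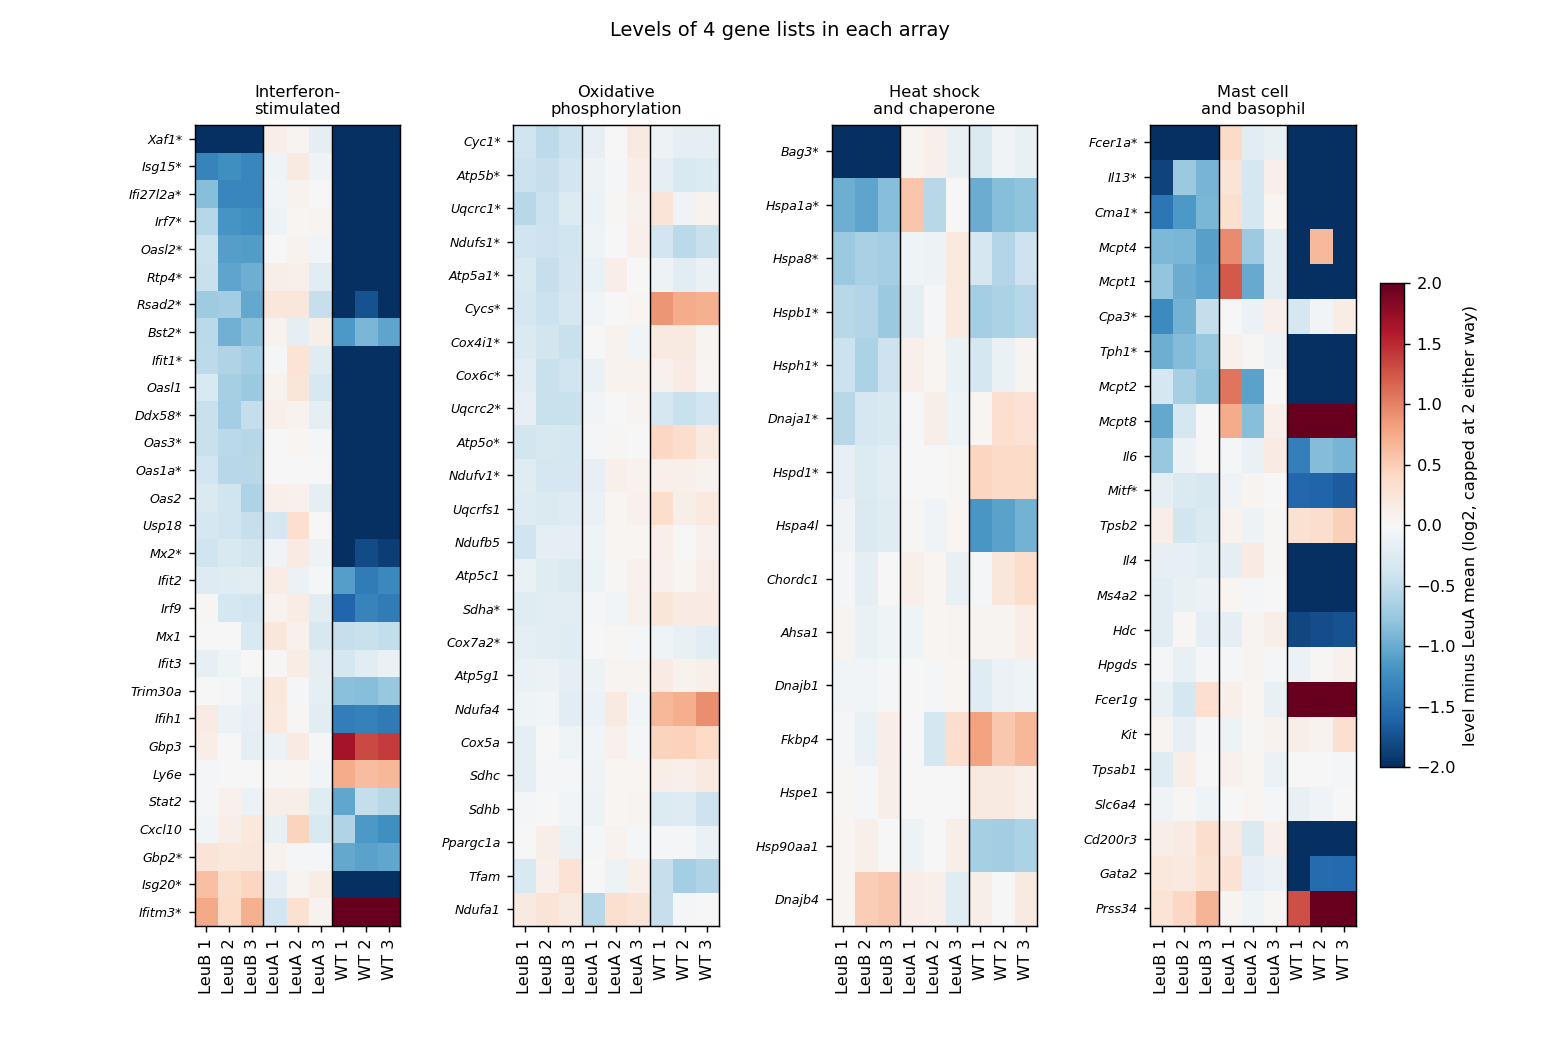
Levels of 4 gene lists in each array, shown as log2 difference from the LeuA mean of each gene (red above, blue below, capped at 2 either way), with LeuB, LeuA and WT arrays from left to right. An asterisk marks genes called between LeuB and LeuA. The interferon-stimulated genes are lower in LeuB than in LeuA by a median of 0.40 and most are lower still in WT, whereas the oxidative phosphorylation genes have a median of -0.26 in LeuB and WT medians of 0.02 to 0.10.

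Of 23 measured mast cell and basophil genes 6 (26.1%) were lower in LeuB and none was higher, beside 5.36% and 6.91% of all genes. Fcer1a, a chain of the IgE receptor, was at 12.72, 13.10 and 13.12 in LeuB, against 16.08, 15.47 and 15.56 in LeuA and 8.11 to 8.57 in WT (6.61-fold lower, log2 difference -2.72, SE 0.19, adjusted p = 3.4e-05). Tph1, which makes serotonin's precursor, was at 13.85, 13.96 and 14.07 in LeuB, against 14.90, 14.85 and 14.72 in LeuA. Il13 and the carboxypeptidase gene Cpa3 fell by 1.18 and by 0.90 and were called in both fits. Il13 was not called without LeuA 1 or LeuA 3 (adjusted p = 0.0617 and 0.0698), nor Cpa3 without LeuA 3 or LeuB 2 (0.0585 and 0.0701). The chymase gene Cma1 fell by 1.17, without a call when slide was a term (adjusted p = 0.0786) or when LeuA 1, LeuA 3 or LeuB 2 was left out. The second IgE receptor chain gene Ms4a2 gave -0.16 and was not called. The number lower was 2 without LeuA 3, 3 without LeuB 2 and 4 without LeuA 1.

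The mean of 5 mast cell and basophil markers was 10.4 to 10.9 in LeuB arrays, against 11.2 to 11.7 in LeuA and 9.55 to 10.1 in WT, and 2 of the 5 were called lower. The markers did not share this order. Fcer1a and Ms4a2 were lowest in WT, whereas Mcpt8 and Prss34 were highest there. Means of these last genes were 8.51 and 7.78 in LeuB, 8.96 and 7.32 in LeuA, and 11.3 and 9.41 in WT. Cpa3 had means of 12.2 in LeuB, 13.1 in LeuA and 13.1 in WT. In sorted bulk RNA, fewer cells of a type and less RNA per cell cannot be told apart. The mean of 6 neutrophil markers was 6.78 to 9.50 in LeuB and 7.56 to 7.61 in LeuA, and of 4 megakaryocyte markers 7.21 to 7.51 and 6.92 to 7.02. The part of such cells in the other differences was not tested.

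The erythroid and megakaryocyte lists had members called in both directions, few of them in both fits. Rhag, an ammonium channel of the red cell membrane, was at 10.89, 10.62 and 10.83 in LeuB, against 9.02, 8.11 and 8.59 in LeuA and 6.27 to 6.35 in WT. The erythroid list had 4 of 23 higher (17.4%) and 1 lower (4.35%), beside 6.91% and 5.36% of all genes, and Rhag alone was called in both fits. The anion exchanger gene Slc4a1 (1.22) and the transferrin receptor gene Tfrc (0.73) had adjusted p = 0.178 and 0.0982 with slide as a term. The member lower, the beta-globin Hbb-b1, was at 12.71, 12.80 and 13.98 in LeuB, against 15.14, 14.82 and 15.32 in LeuA, with adjusted p = 0.0759 when slide was a term, 0.0633 without LeuA 3 and 0.0832 without LeuB 2. With 1 array left out in turn the list had 3 to 7 higher, the 7 without WT 1. Beta-globin copies are near-identical, and its relative Hbb-bs gave 0.94 (adjusted p = 0.0581). Of 18 measured megakaryocyte and platelet genes 4 were higher (22.2%) and 1 lower (5.56%), and only 2 were higher without LeuB 2, LeuB 3 or LeuA 2. Plek and Gp9 rose by 1.26 and 1.03 in both fits, whereas the integrin gene Itgb3 fell by 0.68, with adjusted p = 0.0808 when slide was a term. Plek was at 12.30, 12.46 and 12.47 in LeuB, against 11.02, 11.10 and 11.33 in LeuA and 10.67 to 10.94 in WT.

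Both beta chain genes of the IL-3 receptor group were lower in LeuB. Csf2rb, the chain shared with the IL-5 and GM-CSF receptors, was at 14.38, 14.55 and 14.48 in LeuB, against 15.19, 15.25 and 15.74 in LeuA and 12.61 to 12.82 in WT. Its close copy Csf2rb2, which serves IL-3 alone in the mouse, was at 13.62, 13.91 and 13.79 in LeuB, against 14.94, 14.87 and 14.46 in LeuA. The differences were -0.93 and -0.98 with adjusted p of 0.00294 and 0.00184, and cross-reading of the copies was not tested. The TGF-beta receptor gene Tgfbr2 rose by 0.81 in both fits. The cytokine receptor list had 3 of 28 higher (10.7%) and 5 lower (17.9%), of which 1 and 2 in both fits. Over all genes 6.91% were higher and 5.36% lower. Within the STAT5 list, with 3 of 21 higher and 4 lower, Jak2 and the inhibitor gene Socs2 rose by 0.49 and 0.63 in both fits, and Cish and Socs1 fell by 0.60 and by 0.63 only without the slide term. The other Socs2 probe gave 0.07 and was not called, and Cish was not called without LeuA 3 or LeuB 2 (adjusted p = 0.0577 and 0.074).

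Some negative regulators of RAS and ERK signalling were among the rises. Rasa2, a RAS GTPase-activating protein gene, was at 9.21, 9.33 and 9.38 in LeuB, against 7.20, 6.70 and 6.82 in LeuA and 8.48 to 8.70 in WT (5.27-fold higher, adjusted p = 6.61e-06). Spred2 was at 8.69, 9.05 and 8.81 in LeuB, against 6.98, 6.69 and 6.60 in LeuA and 7.70 to 7.98 in WT. Spred1 was at 10.20, 10.23 and 10.22 in LeuB, against 8.99, 9.15 and 9.17 in LeuA. All 3 were called in both fits. The ERK phosphatase gene Dusp6 rose by 1.57, with adjusted p = 0.0529 when slide was a term, and the kinase gene Braf fell by 0.66 in both fits. Of 22 measured genes in the RAS list 4 were higher (18.2%) and 3 lower (13.6%), beside 6.91% and 5.36% of all genes, and 2 and 1 in both fits. The median was -0.03, and the number lower was 1 without LeuB 2, LeuB 3 or LeuA 2. Spred1, Spred2 and Dusp6 belong to another list, of immediate early and AP-1 genes. Of its 32 measured members 6 were higher (18.8%) and 4 lower (12.5%), 2 and 0 in both fits, with a median of -0.04.

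Single transcription factor genes differed as well. Tcf4, an E protein gene of the dendritic and B lineages, was at 8.94, 9.13 and 9.28 in LeuB, against 6.32, 6.32 and 6.18 in LeuA and 9.98 to 10.14 in WT, 7.18-fold higher. Pbx3, a cofactor of HOX proteins, was at 10.92, 10.70 and 10.88 in LeuB, against 9.34, 9.28 and 9.13 in LeuA, and its second probe rose by 1.39. It was the single member called among 10 measured genes of the HoxA, Meis and Pbx list, beside 12.3% called of all genes. Erg, an ETS factor of stem cells, was at 6.39, 6.66 and 6.50 in LeuB, against 7.53, 7.63 and 7.68 in LeuA and 8.81 to 9.01 in WT. Gata3, a T cell and mast cell factor, was 0.82 higher in LeuB, with 11.10 to 11.26 in LeuB, 10.15 to 10.51 in LeuA and 6.40 to 6.49 in WT.

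The genes of the shared lesions differed as well. Runx1 was at 11.85, 11.89 and 11.70 in LeuB, against 12.69, 12.76 and 12.71 in LeuA and 10.59 to 10.73 in WT (log2 difference -0.90, SE 0.07, adjusted p = 8.6e-05), and its second probe fell by 0.73. Runx1t1 was at 6.65, 7.09 and 7.24 in LeuB, against 8.82, 8.03 and 7.74 in LeuA and 6.03 to 6.20 in WT. Its difference of -1.20 had adjusted p = 0.0157, or 0.0497 with slide as a term and 0.0528 without LeuB 2. No test was made of which transcripts, normal or fused, the probes detect. Of 18 measured genes linked to activation by AML1-ETO 4 were higher (22.2%) and 1 lower (5.56%), and 1 and 1 in both fits. Of 19 linked to repression 2 were higher (10.5%) and 1 lower (5.26%), and 0 and 1 in both fits, beside 6.91% higher and 5.36% lower of all genes. Their medians were 0.12 and 0.04. Without LeuB 2 none of the first list was lower, and without LeuB 2, LeuB 3, LeuA 2 or LeuA 3 only 1 of the second was higher. Ccnd2, a cyclin gene of the first list, rose by 0.68 in both fits (14.18, 14.27 and 14.31 in LeuB, 13.51, 13.70 and 13.49 in LeuA).

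Tet2 was at 9.05, 8.98 and 8.98 in LeuB, against 9.31, 9.45 and 9.38 in LeuA and 9.19 to 9.29 in WT. It fell by 0.37 (adjusted p = 0.0061), with adjusted p = 0.0918 when slide was a term, and its second probe gave 0.08. The positions of both probes in the gene, inside or outside the deletion, were not looked up, so they check neither label. Tet1 gave -0.09 and Tet3 0.35, neither called, and LeuB 1, at 7.17 for Tet3 against 7.65 in both other LeuB arrays, lay with LeuA. Idh2, whose product makes the cofactor that TET enzymes need, fell by 0.52 in both fits. Among genes of the gate, the CD32 gene Fcgr2b rose by 0.69 in both fits, the CD16 gene Fcgr3 gave 0.35 and was not called, and the CD150 gene Slamf1 rose by 0.64 (adjusted p = 0.00833, or 0.152 with slide as a term).

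**Figure D4:**
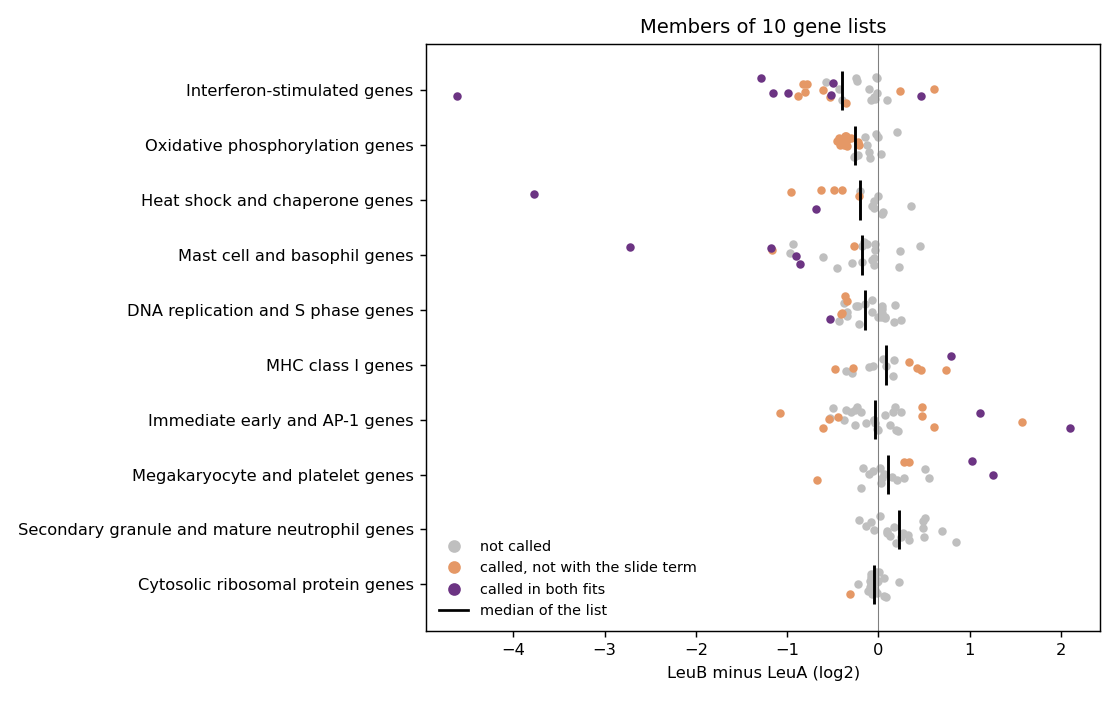
Log2 difference between LeuB and LeuA for each measured member of 10 gene lists, where each point is a gene, colour gives its call and the bar is the list median. The medians of the interferon-stimulated and oxidative phosphorylation lists lie at -0.40 and -0.26. All oxidative phosphorylation members lie between -0.45 and 0.20, whereas single members of other lists lie further out, such as Bag3 (-3.78), Fcer1a (-2.72) and Spred2 (2.10). Of 15 MHC class I genes 5 (33.3%) were higher and 2 (13.3%) lower, 1 and 0 in both fits, beside 6.91% and 5.36% of all genes. With 1 array left out in turn 1 to 4 of them were higher.

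The position of WT was described for the 377 genes that differed at least 2-fold. Of the 207 genes at least 2-fold higher in LeuB, the WT mean lay nearer LeuA in 113 and nearer LeuB in 94. Of the 170 at least 2-fold lower, it lay nearer LeuA in 81 and nearer LeuB in 89. Among all 377, 55 genes were within 2-fold of WT in LeuA and at least 2-fold above WT in LeuB, such as Ldhc and Amph, and 34 were likewise below WT in LeuB alone, such as Bag3 and Plcb4. In the other direction 47 genes were at least 2-fold above WT in LeuA and within 2-fold of it in LeuB, such as Ly6k and Pramel25, and 37 were below WT in LeuA alone. The other 204 genes fell in none of these 4 classes, most of them because both leukaemias were at least 2-fold from WT. These positions share the WT arrays and describe levels without a further test.

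**Figure D5:**
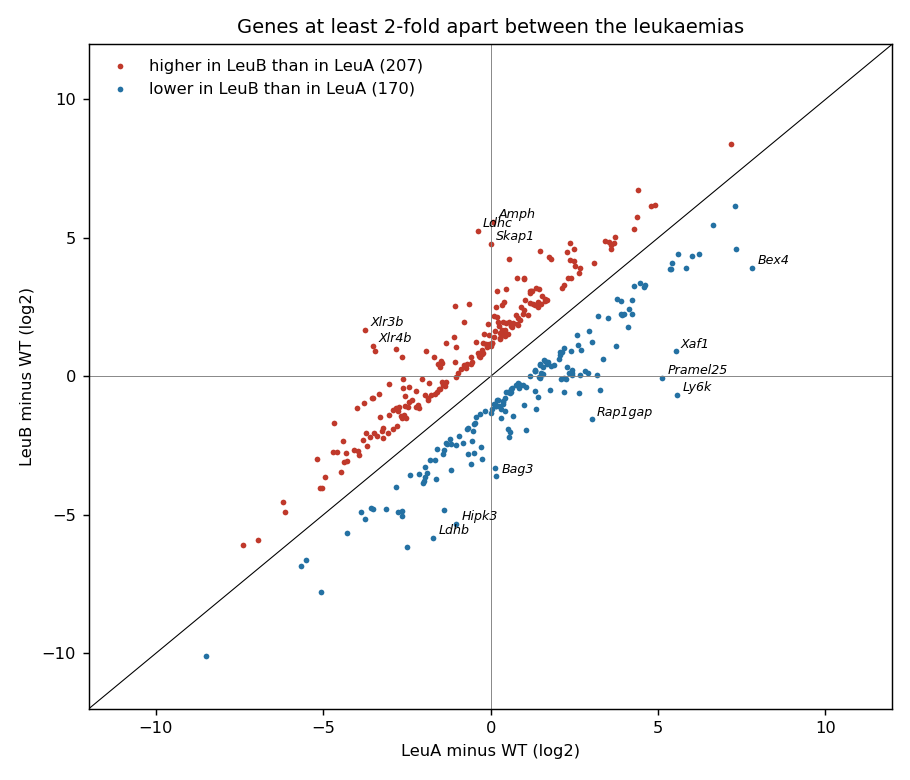
LeuB minus WT (y axis) against LeuA minus WT (x axis), in log2 units, for the 377 genes that differed at least 2-fold between the leukaemias, where each point is a gene and both axes share the 3 WT arrays. Red points (207) are higher and blue points (170) lower in LeuB than in LeuA, and points near the horizontal or vertical line at 0 stand near WT in one leukaemia only.

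Granule, monocyte and cell cycle lists were examined as well. None of 20 secondary granule and mature neutrophil genes and none of 17 monocyte and macrophage genes was called in limma. Their medians were 0.22 and 0.20, and -0.08 and 0.05 with slide as a term. Relative to the LeuA mean, the first list had medians of -0.083, -0.078 and 0.961 in LeuB 1 to 3. LeuB 2, on the second slide, thus lay with LeuB 1, and LeuB 3 alone stood higher. The second list had medians of 0.051, 0.110 and 0.392. Mitosis genes had 2 of 24 higher (8.33%) and 3 lower (12.5%), beside 6.91% and 5.36% of all genes. Both counts were 0 with slide as a term and without LeuB 2, LeuA 1 or LeuA 3, and 6 were higher without LeuB 1. Replication genes had 5 of 25 lower (20.0%) and none higher, of which Mcm2, a helicase subunit gene, was called in both fits (12.63, 12.56 and 12.69 in LeuB, 13.09, 13.19 and 13.18 in LeuA). The replication count was 1 without LeuB 2, LeuA 2 or LeuA 3, 3 without LeuB 3 or WT 3, and 9 without LeuB 1. The primary granule gene Ctsg, cathepsin G, fell by 1.59 in both fits, at 7.47, 7.67 and 8.29 in LeuB, against 9.76, 9.41 and 9.01 in LeuA and 17.84 to 17.92 in WT. Of the other granule proteases, Elane gave 0.04 and Prtn3 0.24, neither called.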

How the data were processed

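The authors deposited log2 intensities of one-colour Agilent arrays, and the submitters' processing notes name the tools affy and limma and the method RMA. Their order and versions are not given in the sources used here. Arrays were grouped by title and source name. The field on transplanted cells names LeuA for the LeuB arrays too. Of 37877 probes, 24877 carry 1 gene symbol in the platform annotation, none carries several and 13000 carry none. The probe with the highest mean over 9 arrays stood for each of 21872 genes. Group means were fitted with limma 3.58.1 (R 4.3.3; lmFit, eBayes defaults, two-sided), and p-values were adjusted over all genes by Benjamini-Hochberg. The fit was repeated with slide as a term, and was tested on simulated data. The labels call the triplicates biological, and whether an array holds 1 recipient or a pool is not given there. The number of arrays limits precision.

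Named genes are Tet1 to Tet3, Runx1, Runx1t1, Kit, Fcgr3, Fcgr2b, Slamf1, the 12 largest rises and falls called in both fits without overlap of arrays, and up to 4 called members of each of 45 lists (816 of 885 genes measured). Members and lists were chosen with earlier results of these data known. Ldha, Xlr, Bex and Pramel relatives, p200 genes, S100a9, Mpo, Elane, Prtn3, Ms4a2, Hbb-bs, Tph1, Tgfbr2, Jak2 and further list members were named after their values were seen. Sequences are from RefSeq (read with Biopython 1.88). Antigen receptor segments and unnamed gene models were left out of naming. Alternatives are given in the closing section.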

Additional observations from a re-analysis of the deposited data

How the results depend on the processing

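With slide as a block 869 genes were called, 439 higher and 430 lower, and with slide 1 only 581 (299 higher, 282 lower), under the assumption that the lone LeuB 1 varies as the LeuA and WT arrays do. The slide effect can be estimated only within LeuB, so both rest on LeuB 1, and median standard errors were 0.111 with the block and 0.0904 without. With the 6 leukaemia arrays only, 1783 were called, 762 of them lower, and 387 in both fits. Leaving out each array in turn gave 1380 (without LeuB 2) to 5498 (without LeuB 1) called, 790 to 2798 higher and 590 to 2700 lower. Genes called in both fits numbered 501 (without WT 3) to 1051 (without LeuA 1), and without LeuB 1 slide and group coincide. The count at least 2-fold stayed between 270 and 446. Quantile normalization again, the mean of all probes, genes above the median level and eBayes with trend kept every count within 1.5 times. Kit changed sign with slide as a block and on slide 1 (0.0508), and ran from -0.10 to 0.0122 over arrays left out, the highest without LeuB 2. Ccr9 was -0.0696 with the mean of all probes. Of 145 named genes that were called, 67 were called with the slide block. The 24 largest differences were picked as called in both fits without overlap of arrays. The refit with slide as a block therefore could not lose them, and the other refits share most arrays with the main fit. All 24 kept direction and call in all 408 refits, at 0.269 to 1.12 times their size.

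The replicate numbers did not pair the arrays: 9 same-numbered pairs correlated between -0.041 and 0.103, and 4 of 9 arrays had their best partner in the same number. With the replicate block 2281 genes were called, and 368 in both fits.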

Other observations

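Genes of one chromosome had more calls in one direction. Among 10858 genes above the median level with a place in RefSeq, 88 of the 355 on chromosome 12 (24.8%) were called higher in LeuB and 17 (4.79%) lower, beside 11.1% and 9.61% of all. With slide as a term too, the counts were 21 higher and 9 lower. Relative to the LeuA mean, the median of chromosome 12 genes was 0.08, 0.16 and 0.18 in the LeuB arrays, between -0.01 and 0.02 in the LeuA arrays, and between -0.09 and -0.01 in the WT arrays. LeuB 1, on the slide of LeuA, thus showed a smaller shift than the other LeuB arrays. In successive bins of 50 genes along the chromosome the median difference was 0.04 to 0.21, each above 0. Chromosome 13 had the next highest median, 0.05, with 64 of 422 genes higher and 22 lower, and medians of the other chromosomes lay between -0.07 and 0.04. Copy number was not measured, and the chromosome was singled out after its values were seen.

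Some neighbouring genes shared their direction. Of 376 genes that differed at least 2-fold and have a place in RefSeq, 32 adjacent pairs moved the same way and 2 moved opposite ways, and in 18 of the 32 both genes were called with slide as a term too. Beside the Xlr, Bex and p200 genes these include Gstt2, a glutathione transferase gene, and Mif, a cytokine gene next to it (2.76 and 1.25), St3gal2 and Fcsk (3.36 and 1.06), and Chchd6 and the thioredoxin reductase gene Txnrd3 (-1.68 and -2.58). Next to Ly6k, Gml and Gml2 were lower in LeuB by 1.66 and by 1.53. Their LeuA values were nearly equal, at 12.67, 11.99 and 12.36 for Gml and 12.63, 11.99 and 12.37 for Gml2. Whether probes of such neighbours, or of Serpina3f and Serpina3i, read each other's transcripts was not tested. Most of the 376 genes were in no such pair, and the number of pairs to expect was not computed. The named pairs were chosen after their values were seen.

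A single array held the largest departure within LeuB. Pmaip1, which encodes the pro-apoptotic protein NOXA, was at 5.89, 14.42 and 5.83 in LeuB 1 to 3, against 5.97, 6.01 and 6.88 in LeuA and 7.46 to 9.71 in WT, and was not called (adjusted p = 0.446).

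Of the 13000 probes with no gene name, 569 (4.38%) were called over all probes, 396 higher and 173 lower in LeuB, beside 9.99% of probes with a name.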
